A study of Homo sapiens with 5 samples.

Results

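The genes described here are 9 of the 58929 in the deposited tables, chosen by name for their role in cellular iron handling. They are the ferritin chains FTH1 and FTL, the uptake genes TFRC, STEAP3 and SLC11A2, the exporter SLC40A1, the ferritin receptor NCOA4 and the regulatory proteins IREB2 and ACO1. They were measured in 5 libraries of A549, an established human lung adenocarcinoma line, in which the RNA-binding protein RBMS1 was stably depleted or overexpressed. The sh control was 1 library, and RBMS1 knockdown was 2 libraries with separate short hairpins, sh1088 and sh1196. The pCDH control was 1 library, and RBMS1 overexpression (R1A in the labels) was 1 library. All cells were grown in F12K medium with serum and received cycloheximide, which holds ribosomes on mRNA, at 100 ug/mL for 15 min. Lysates were digested with RNase I for 5 min before fractions with single ribosomes were taken. That the libraries hold ribosome footprints rests on the series' design text, since the molecule label reads total RNA and the protocols also describe a total RNA input. Iron supply to the cells was not given in the labels, and no protein was measured in the data used here.

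Iron enters most cells as transferrin bound to the transferrin receptor, which TFRC encodes. In the endosome the reductase STEAP3 converts the released iron to its ferrous form, and the transporter SLC11A2 (DMT1) moves it to the cytosol. Iron that is not used is stored inside ferritin, a shell of heavy (FTH1) and light (FTL) chains, or leaves through ferroportin, which SLC40A1 encodes. NCOA4 carries ferritin to lysosomes, where its iron is released, a route known as ferritinophagy that bears on ferroptosis, a death driven by iron-dependent lipid peroxidation. When iron is scarce, the iron regulatory proteins IRP1 (ACO1, an aconitase when it holds an iron-sulfur cluster) and IRP2 (IREB2) bind iron-responsive elements, short hairpins in mRNA. An element in the 5′ UTR then blocks translation of ferritin and ferroportin mRNA, while elements in the 3′ UTR protect TFRC mRNA from decay. Footprints on ferritin genes therefore read both the amount of mRNA and its translation, and these libraries do not separate the 2.

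The elements are shown first because they are the sequences through which iron regulatory proteins act on ferritin, ferroportin and transferrin receptor mRNA. GENCODE 29 transcripts (build GRCh38, which may differ from the authors' build) were searched on the sense strand for a C, 5 bases, the loop CAGTGN and 5 bases that pair with the first 5, G with T allowed. The capitals mark the unpaired C and the loop, and each line gives 30 bases, 5′ to 3′, in the letters of DNA. The FTH1 element lies in the 5′ UTR at chr11:61967574-61967603 on the minus strand, and the FTL element in the 5′ UTR at chr19:48965334-48965363 on the plus strand. The SLC40A1 element lies in the 5′ UTR at chr2:189580661-189580690 on the minus strand. The pattern matched 4 times in TFRC, and these need not be all of its elements. The 4 matches lie in the 3′ UTR on the minus strand, at chr3:196050979-196051008, chr3:196050575-196050604, chr3:196050510-196050539 and chr3:196050463-196050492 in the order of the transcript.
FTH1 5′ UTR: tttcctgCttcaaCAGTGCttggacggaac
FTL 5′ UTR: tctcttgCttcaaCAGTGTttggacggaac
SLC40A1 5′ UTR: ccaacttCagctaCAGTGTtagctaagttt
TFRC 3′ UTR, element 1: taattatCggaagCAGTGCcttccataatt
TFRC 3′ UTR, element 2: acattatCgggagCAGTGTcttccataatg
TFRC 3′ UTR, element 3: tctgtatCggagaCAGTGAtctccatatgt
TFRC 3′ UTR, element 4: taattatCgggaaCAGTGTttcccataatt
The ferritin elements share the 5 bases on either side of the loop, and the TFRC elements begin their stem with a different run. The pattern was found in 616 of 83064 coding transcripts (0.742%) and in 291 of 19684 coding genes (1.48%). In the 5′ UTR it was found in 36 genes (0.183%), and in the 3′ UTR in 132 genes (0.671%). It occurred in 7 of 8 coding transcripts of FTH1, 1 of 1 of FTL, 3 of 4 of TFRC and 1 of 5 of SLC40A1. No match to these letters was found in the transcripts of NCOA4, IREB2, ACO1, STEAP3 or SLC11A2 (0 of 18 for SLC11A2). The pattern is strict and misses known elements: SLC11A2 is known to carry an element in the 3′ UTR of some transcripts and EPAS1 in its 5′ UTR, and neither matched (0 of 2 transcripts for EPAS1).

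The libraries held between 10327750 and 13980837 rounded expected counts. The share of counts on nuclear protein-coding genes was 37.7% for the sh control and 42.2% for sh1088, and 62.3% to 66.3% elsewhere. The mean fragment length was 52.3 nt in the pCDH control and 40.9 nt in the overexpression library, with 43.4 to 46.3 nt elsewhere. RBMS1 itself, as a check of the labels, stood at 31.003 CPM in the sh control, against 18.3 in sh1088 and 13.4 in sh1196, and at 24.7 in the pCDH control against 37.0 with overexpression. It was lower in both knockdown libraries and higher with overexpression than in the control of its arm, and the knockdown fit gave -0.93 on the log2 scale (SE 0.45, adjusted p = 0.828 by edgeR). Of 10 genes listed for A549 cells, 9 passed the low-count filter. The other was CDKN2A (0 to 0.416 CPM), which was listed because it is deleted in A549. Erythroid markers were at 0 in 5 of 5 cases. The summed level of 5 immune markers was 28.3 to 109 CPM, mostly CD68 (21.4 to 87.8) and CD14 (6.85 to 20.8), while PTPRC and CD3E were at 0. CD68, which lysosomes of many cell types hold, was highest in the pCDH control. Fibroblast markers summed to 2.37 to 9.81 CPM, mostly COL1A1 with DCN at 0, and endothelial markers to 0.155 to 1.18 CPM, with VWF and KDR at 0. The part of such cells in the levels below was not tested. In such bulk libraries, fewer cells with a transcript and less transcript per cell cannot be told apart. The labels do not tie the libraries to separate cultures. In the knockdown fit the spread behind a p-value rests on the difference between sh1088 and sh1196, so it mixes hairpin with technical differences. In the level fit it also holds the difference in effect between the arms.

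By TPM, ferritin heavy chain was the most abundant member in every library, followed by the light chain and then TFRC. The order of the chains depends on the length used: by counts per longest coding length, FTH1 to FTL was 0.802 in the overexpression library. FTH1 (ENSG00000167996.16, chromosome 11, 61959718 to 61967660) stood at 704 TPM in the sh control, FTL at 258 and TFRC at 13.5. In the overexpression library the TPM levels of these 3 genes were 583, 485 and 103. TPM levels are given to rank genes within a library and are not to be read between libraries. The median TPM log2 ratio over all genes was 1.36 for knockdown against the sh control and -0.80 for overexpression against the pCDH control. The remaining members lay between 1.31 TPM (STEAP3) and 6.27 TPM (IREB2) in the sh control.

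After TMM scaling, both ferritin chains were low in sh1196 and in the overexpression library. FTH1, in CPM (counts brought to a common library size by TMM scaling), stood at 1755 in the sh control, against 1931 in sh1088 and 804 in sh1196, and at 1619 in the pCDH control against 555 with overexpression. The knockdown libraries therefore lay on opposite sides of their control, and the sh control was 1.08-fold over the pCDH control. By library size alone FTH1 stood at 1213 CPM in the sh control, against 1582 in sh1088 and 1005 in sh1196. It then stood at 2018 in the pCDH control against 629 with overexpression, so the order of the controls was reversed. FTL (ENSG00000087086.15, chromosome 19, 48965301 to 48966878), the chain that promotes mineral formation in the shell, stood at 1013 CPM in the sh control, against 888 in sh1088 and 521 in sh1196, and at 1489.7 in the pCDH control against 662 with overexpression. FTL was lower in both knockdown libraries than in the sh control and lower with overexpression than in the pCDH control. Neighbouring TMM-scaled levels of both genes, ranked over the 5 libraries, had counting intervals that did not overlap. Such intervals do not hold the choice of scaling. Processed ferritin copies could take reads from the parents. The 25 FTH1 pseudogenes held 0.226% to 0.744% of the FTH1 count and the 16 FTL pseudogenes 0.0636% to 0.297% of the FTL count. Reads that match parent and copy alike may have been left out of both, and these shares cannot show how many.

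**Figure D1:**
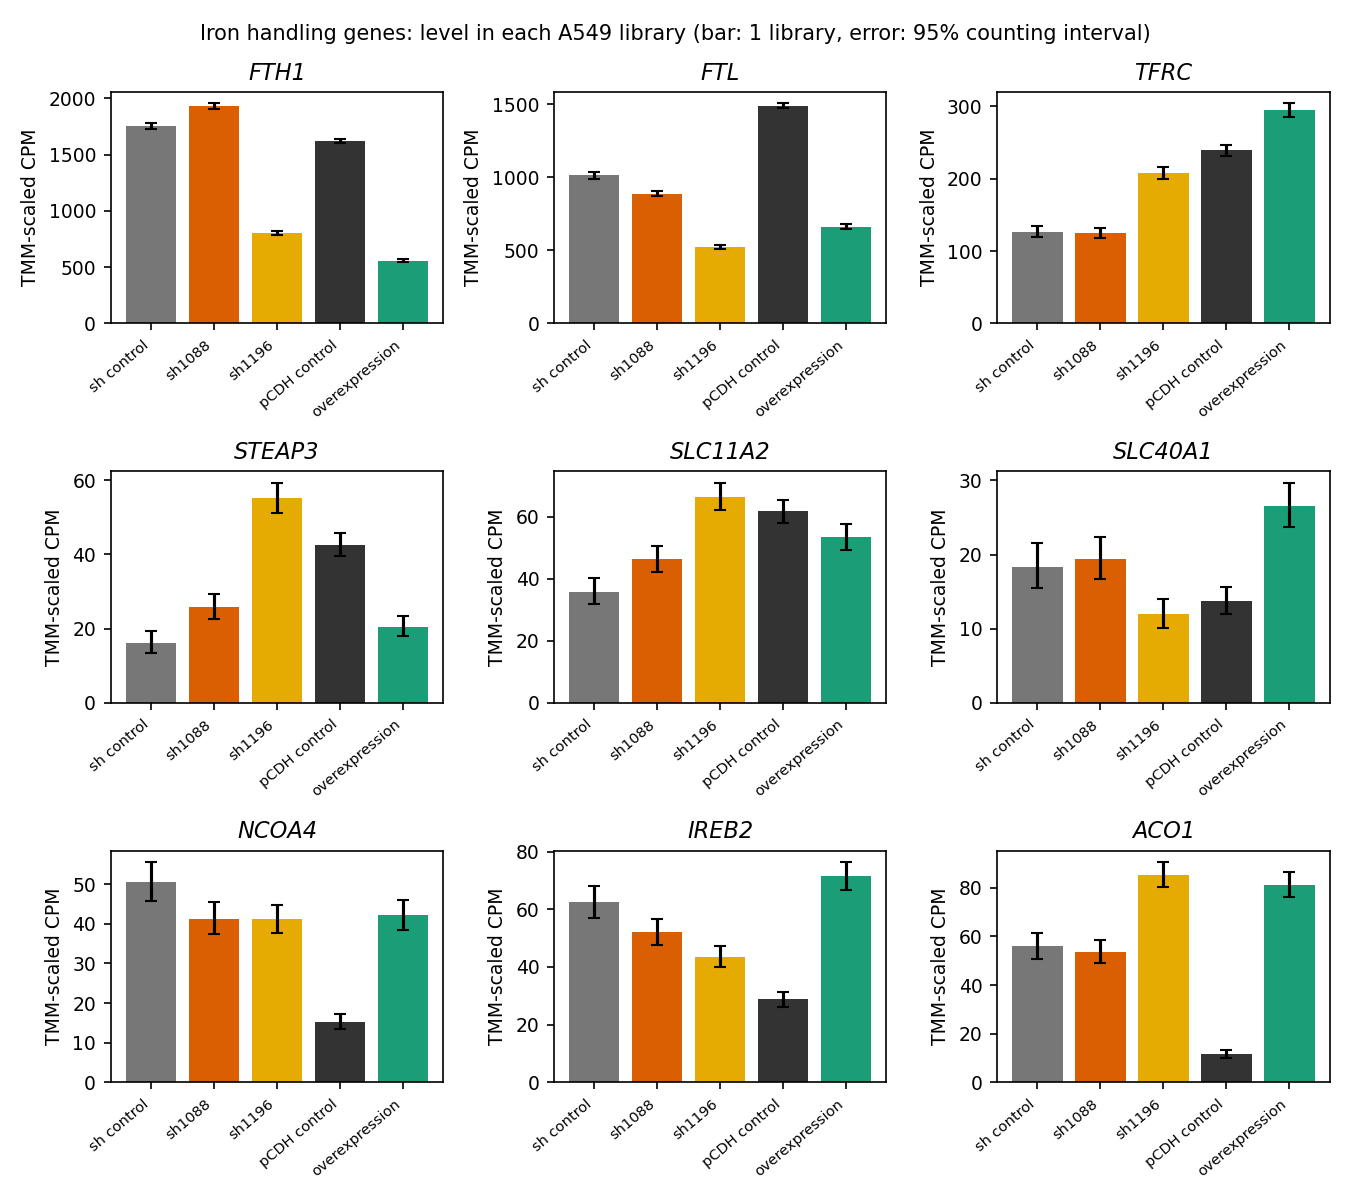
Level of each iron handling gene in each of the 5 A549 libraries, in TMM-scaled CPM on linear axes that start at 0. Each bar is 1 library and its error bar the 95% counting interval; FTH1 and FTL are low in sh1196 and overexpression, and NCOA4, IREB2 and ACO1 are lowest in the pCDH control.

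Among the uptake genes, TFRC was highest in the overexpression library and STEAP3 and SLC11A2 in sh1196. TFRC (ENSG00000072274.13, chromosome 3, 196027183 to 196082189) stood at 127 CPM in the sh control, against 124 in sh1088 and 208 in sh1196, and at 239 in the pCDH control against 295 with overexpression. The sh control and sh1088, which did not differ beyond counting error, were the low pair, and they are also the libraries with the lowest share of nuclear protein-coding counts. The part of that share in the TFRC levels was not tested. STEAP3 (ENSG00000115107.20, chromosome 2, 119223831 to 119265652) stood at 16.2 CPM in the sh control, against 25.8 in sh1088 and 55.1 in sh1196, and at 42.6 in the pCDH control against 20.5 with overexpression. It was higher in both knockdown libraries and lower with overexpression, each against its own control, although the controls themselves differed 2.63-fold. SLC11A2 (ENSG00000110911.15, chromosome 12, 50979401 to 51028566) had the same order of signs, at 35.9 CPM in the sh control, against 46.3 in sh1088 and 66.5 in sh1196, and at 61.8 in the pCDH control against 53.4 with overexpression. STEAP3 lies opposite the antisense gene STEAP3-AS1, and SLC11A2 contains the small RNA pseudogene RNU6-87P on its own strand. FTH1 lies opposite BEST1, TFRC opposite AC024937.1 and RNU7-18P, and IREB2 opposite AC027228.1. Whether the authors' counting used strand is not given in the sources used here, so reads shared with these genes cannot be told apart.

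The exporter gene SLC40A1 (ENSG00000138449.10, chromosome 2, 189560579 to 189583758) was a low-abundance gene. It stood at 18.3 CPM in the sh control, against 19.3 in sh1088 and 11.9 in sh1196, and at 13.7 in the pCDH control against 26.6 with overexpression, from 147 to 316 counts. Only the step from sh1088 to the overexpression library separated neighbouring levels beyond counting error. NCOA4 (ENSG00000266412.5, chromosome 10, 46005088 to 46030714) stood at 50.4 CPM in the sh control, against 41.3 in sh1088 and 41.2 in sh1196, and at 15.2 in the pCDH control against 42.1 with overexpression. Its level in the pCDH control was 2.71-fold under the next library, and the other 4 libraries overlapped with their neighbours in rank.

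The genes for both iron regulatory proteins were also lowest in the pCDH control. IREB2 (ENSG00000136381.13, chromosome 15, 78437431 to 78501456) stood at 62.4 CPM in the sh control, against 52.0 in sh1088 and 43.6 in sh1196, and at 28.7 in the pCDH control against 71.4 with overexpression. ACO1 (ENSG00000122729.19, chromosome 9, 32384603 to 32454769) stood at 55.9 CPM in the sh control, against 53.8 in sh1088 and 85.4 in sh1196, and at 11.5 in the pCDH control against 81.3 with overexpression. The pCDH level of ACO1 was 4.69-fold under that of sh1088, the next lowest, and rested on 200 counts. ACO1 did not differ beyond counting error between sh1196 and overexpression, nor between sh1088 and the sh control.

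The first comparison asked which members differed between RBMS1 knockdown and the sh control. None of the 9 passed edgeR's quasi-likelihood test at an adjusted p of 0.05, where 0% of the 14913 genes tested passed, and none had an unadjusted p under 0.05, against 5.87% of all genes. DESeq2 called 16 genes and limma-voom 0 over the same genes, no member among them. STEAP3 had the largest value, at 1.35 on the log2 scale (SE 0.59, adjusted p = 0.828 by edgeR), followed by SLC11A2 at 0.69 (SE 0.48, adjusted p = 0.835). The ferritin chains had values of -0.32 (FTH1, SE 0.73) and -0.49 (FTL, SE 0.61), and TFRC 0.42 (SE 0.55). NCOA4, IREB2 and SLC40A1 lay at -0.26, -0.35 and -0.19, and ACO1 at 0.35. Set against the pCDH control instead, STEAP3 stood at -0.059 and SLC11A2 at -0.12. The median over the members was -0.19, beside 0.066 over all genes tested. In the authors' deposited table for this arm, STEAP3 had a log2 fold change of 1.35 with an adjusted p of 0.0533, and no member was classed as changed, against 1.69% of genes classed as up and 1.77% as down.

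The ferritin chains and TFRC differed between the hairpin libraries. For FTH1 the log2 ratio to the sh control was 0.14 (95% counting interval 0.11 to 0.17) in sh1088 and -1.13 (-1.16 to -1.09) in sh1196. For FTL it was -0.19 (-0.23 to -0.15) in sh1088 and -0.96 (-1.005 to -0.911) in sh1196. TFRC had -0.026 (-0.15 to 0.096) in sh1088 and 0.71 (0.61 to 0.82) in sh1196, and ACO1 had -0.056 and 0.61. With TMM scaling the ferritin chains were thus low in sh1196 where TFRC was high, and in sh1088 neither chain nor TFRC moved by more than 0.19. STEAP3 was higher in both, by 0.67 and 1.77, as was SLC11A2, by 0.37 and 0.89. These 2 of 9 members compare with 34.9% of all genes higher in both hairpin libraries. FTL, NCOA4 and IREB2, or 3 of 9, were lower in both, against 36% of all genes. The hairpins share the control library, so their values are given side by side only.

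**Figure D2:**
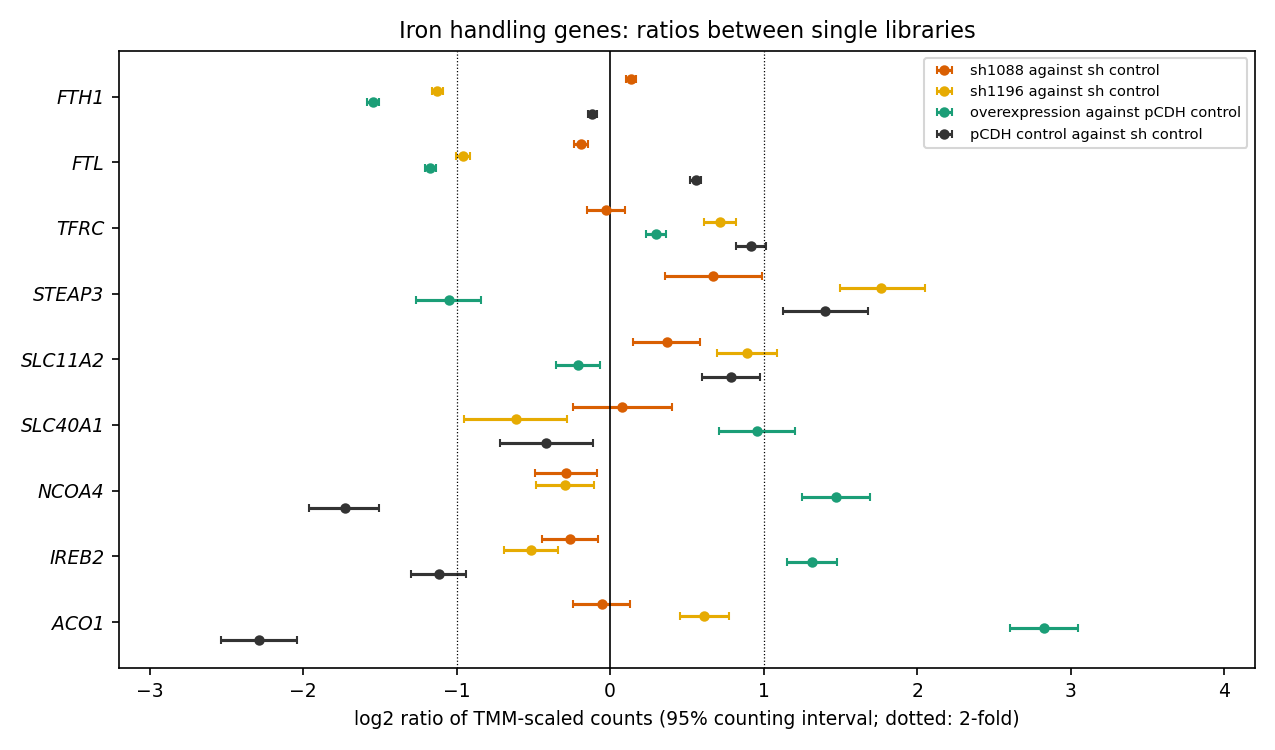
Log2 ratios of TMM-scaled counts for the 9 genes, each point 1 library against another with its 95% counting interval, and dotted lines at 2-fold. The pCDH control against sh control points (black) and the overexpression points (green), which share the pCDH library, lie on opposite sides of 0 for FTL, STEAP3, SLC11A2, SLC40A1, NCOA4, IREB2 and ACO1, at -2.28 and 2.82 for ACO1.

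The second comparison set RBMS1 overexpression against the pCDH control. With 1 library on each side there is no replicate check and no p-value, and a 2-fold ratio was used to describe genes. ACO1 (log2 ratio 2.82, 95% counting interval 2.60 to 3.05), NCOA4 (1.47, 1.25 to 1.69) and IREB2 (1.31, 1.15 to 1.48) were at least 2-fold higher, 3 of 9 members, against 14.6% of 10438 genes. FTH1 (-1.54, -1.58 to -1.51), FTL (-1.17, -1.21 to -1.13) and STEAP3 (-1.05, -1.27 to -0.84) were at least 2-fold lower, again 3 of 9, against 13.7% of genes. SLC40A1 (0.96), TFRC (0.30) and SLC11A2 (-0.21) lay inside 2-fold. The members spread to both sides, with a median of 0.30 beside 0.064 over all genes, and 6 of 9 were past 2-fold in either direction, against 28.3% of genes. FTH1 lay at the 5.12th percentile of all ratios, FTL at the 10.5th and ACO1 at the 99.0th. The authors' deposited table, also made from 1 library per group, classed the same 6 members in the same directions, where 13.7% of genes were classed as up and 11.7% as down, with log2 fold changes of -1.11 for FTH1, -0.79 for FTL, 0.73 for SLC40A1 and 2.73 for ACO1. These are not the count ratios shifted by a constant (FTH1 and FTL lie above their ratio, SLC40A1 and ACO1 below), and the authors' normalisation for that table is not stated in the labels or headers.

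**Figure D3:**
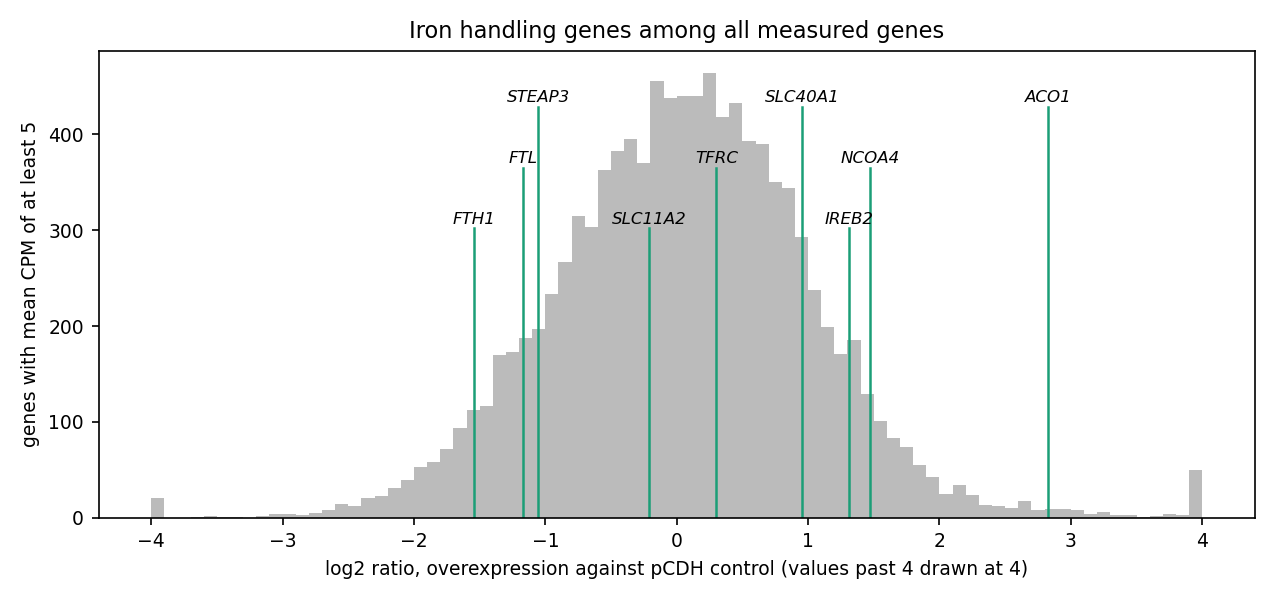
Histogram of log2 ratios of overexpression to the pCDH control over genes with a mean CPM of at least 5, with vertical lines at the 9 iron handling genes (line height has no meaning). FTH1 (-1.54), FTL (-1.17) and STEAP3 (-1.05) lie on the lower flank and ACO1 (2.82) in the upper tail.

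Base composition and the choice of control moved with these ratios. Ratios fell with GC content across genes: among the 500 genes nearest in GC, the median was -0.28 for FTH1 (54.8% GC), -0.51 for STEAP3 (57.7%) and 0.63 for TFRC (41.9%). Relative to those medians FTH1 stood at -1.26, FTL at -0.84 and STEAP3 at -0.54, which left 1 member at least 2-fold lower (8.62% of genes were), and TFRC turned to -0.32. ACO1 stood at 2.54, NCOA4 at 1.06 and IREB2 at 0.87 on that scale. The controls differed from each other by a log2 ratio, pCDH to sh, of -2.28 for ACO1, -1.73 for NCOA4, -1.12 for IREB2 and 1.40 for STEAP3. These were 3 members at least 2-fold lower (19% of all genes were) and 1 at least 2-fold higher (17.2% were), 4 of 9 in either direction against 36.3%. Set against the sh control instead, the overexpression library had 1 member at least 2-fold lower (FTH1, with 10.6% of all genes) and 1 higher (TFRC, with 9.08%), and NCOA4 (-0.26) and STEAP3 (0.34) changed sign. IREB2 also depends on the measure, because its RSEM gene length was 1106 nt in the pCDH control and 3114 nt in the overexpression library. By TPM relative to the median of all genes its ratio was -0.099.

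The third comparison fitted a linear term for the RBMS1 level over all 5 libraries. No member passed the edgeR test at an adjusted p of 0.05, against 0.00632% (1 of 15827) of all genes, and STEAP3 alone had an unadjusted p under 0.05, against 6.6% of genes. STEAP3 had a slope of -1.204 per step on the log2 scale (SE 0.44, adjusted p = 0.729 by edgeR). ACO1 had a slope of 1.11 (SE 0.81), NCOA4 of 0.81 (SE 0.42) and IREB2 of 0.79 (SE 0.40), and the ferritin chains of -0.40 (FTH1) and -0.16 (FTL). By sign alone, STEAP3, SLC11A2, NCOA4 and IREB2 lay on one side of the control in both knockdown libraries and on the other with overexpression. These 4 of 9 members compare with 38.5% of all genes. NCOA4 and IREB2 were lower in both knockdown libraries and higher with overexpression, as were 19.9% of genes, and STEAP3 and SLC11A2 the reverse, as were 18.6%.

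Ratios within a library do not depend on the scaling between libraries. The ratio of FTH1 to FTL in TPM stood at 2.73 in the sh control, against 3.43 in sh1088 and 2.30 in sh1196, and at 1.62 in the pCDH control against 1.202 with overexpression. The heavy chain thus exceeded the light chain in each library by TPM, least so in the pCDH pair. Per longest coding length the ratio ran lower, from 0.802 in the overexpression library to 2.08 in sh1088, with the same order of libraries. The ratio of TFRC to FTH1 stood at 0.0191 in the sh control, against 0.0199 in sh1088 and 0.109 in sh1196, and at 0.0508 in the pCDH control against 0.177 with overexpression. It was high in sh1196 and overexpression, where RBMS1 lay at its lowest and its highest level. These genes differ in base composition, at 41.9% GC for TFRC and 54.8% for FTH1. For overexpression against the pCDH control, genes nearest in GC had a median log2 ratio of 0.63 for TFRC and -0.28 for FTH1. Relative to those medians TFRC stood at -0.32 and FTH1 at -1.26. The part of GC content in the ratio of TFRC to FTH1 was not tested.

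**Figure D4:**
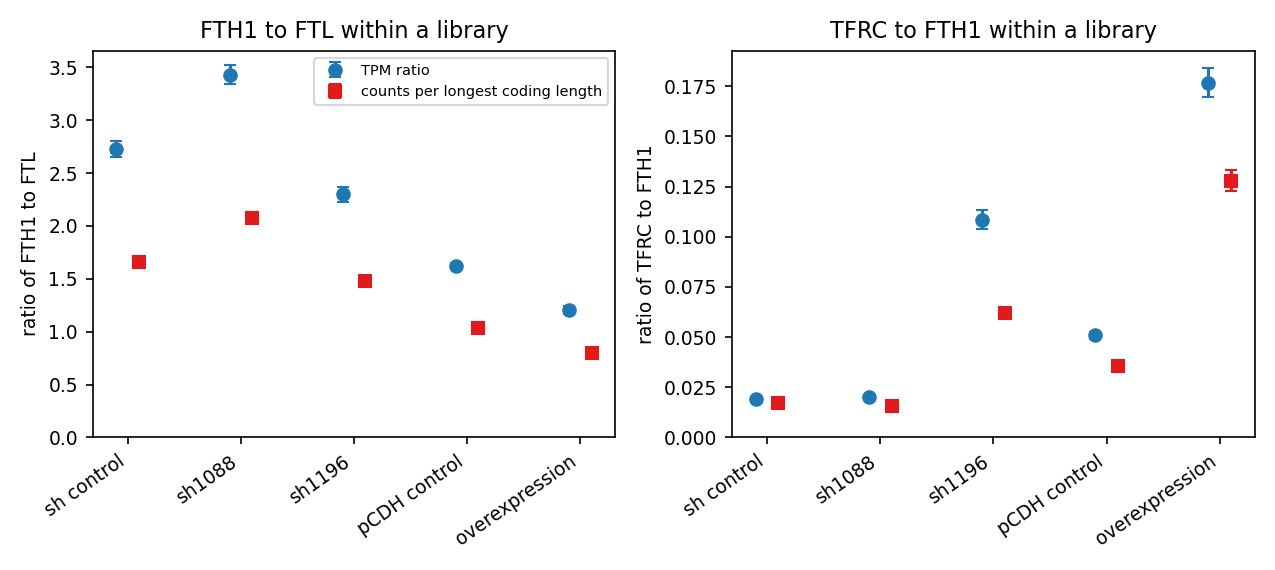
Ratio of FTH1 to FTL (left) and of TFRC to FTH1 (right) within each library, on linear axes from 0, as a TPM ratio (circles) and as counts per longest coding length (squares), with 95% counting intervals. FTH1 to FTL falls from 3.43 in sh1088 to 1.202 in overexpression, and TFRC to FTH1 is highest in overexpression (0.177) and sh1196 (0.109).

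The genes most like the ferritin chains and TFRC over the 5 libraries were found by the root mean square difference of centred log2 CPM among 5883 genes with a mean CPM of at least 20. For FTH1 these were RHOF (0.11), HMOX1 (0.20) and MBD6 (0.21), beside a median difference of 0.86 over all genes. FTL was nearest to TMEM189 (0.067), ZBTB4 (0.10) and JUND (0.10), and TFRC to CHD8 (0.058), POLD3 (0.080) and XPO1 (0.085). FTH1 and FTL differed from each other by 0.49. With 5 libraries that share depth and make-up, such likeness is a description only.

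Other genes of iron uptake, export and sensing were listed by role. Of 25 genes, 17 passed the low-count filter of the knockdown fit and 0 were called by edgeR, against 0% of all genes. None had an unadjusted p under 0.05, against 5.87% of all genes. Their median knockdown value was 0.084 on the log2 scale, beside 0.066 over all genes. SLC39A14, a zinc and iron importer, stood at 157 CPM in the sh control, against 255 in sh1088 and 339 in sh1196, and at 179 in the pCDH control against 157 with overexpression. The knockdown fit gave it 0.95 on the log2 scale (SE 0.55, adjusted p = 0.828 by edgeR). FBXL5, the subunit of a ubiquitin ligase that degrades IRP2 when iron is present, stood at 19.5 CPM in the sh control, against 17.4 in sh1088 and 19.5 in sh1196, and at 14.5 in the pCDH control against 22.4 with overexpression. The ferric reductase gene CYBRD1 and the iron chaperone genes PCBP1 and PCBP2 had knockdown log2 fold changes of 0.53, 0.39 and 0.18. HFE, whose product binds the transferrin receptor, had 0.084, and mitochondrial ferritin (FTMT) was at 0 counts in the libraries. With overexpression, 16 genes of the list had a mean CPM of at least 5. Of these, 4 were at least 2-fold higher (STEAP2, SLC39A8, CP and LCN2) and 1 was at least 2-fold lower (MELTF), against 14.6% and 13.7% of all genes. They are named here after their values were seen. STEAP2, SLC39A8 and CP were highest in the overexpression library, while LCN2 was highest in sh1088, at 1219 CPM against 399 with overexpression. STEAP2 was lowest in the pCDH control, at 34.8 CPM against 110 in the sh control and 125 with overexpression. Of the other genes with known iron-responsive elements, EPAS1, a hypoxia-inducible factor gene, had a knockdown value of -0.42. From that list 0 of 4 tested were called, against 0% of all genes.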

How the data were processed

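Libraries of A549 cells (5 in all), ribosome footprints by the series' design text, were analysed from the gene tables the authors deposited. Per the file headers these hold RSEM expected counts, TPM and FPKM. The authors' deposited comparison tables give a mean normalised signal, a log2 fold change, its standard error, a test score and p-values per gene, per the file headers. Tools listed in the submitters' processing notes are STAR 2.4.2, RSEM 1.3.1, Bowtie and DESeq2. The genome build, annotation and strand setting are not stated in the labels or headers, and gene positions come from GENCODE 29, matched for 58656 of 58929 identifiers.

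Expected counts were rounded to whole numbers. Knockdown was tested with edgeR 4.0.16 in R 4.3.3 (quasi-likelihood, TMM scaling, filterByExpr, Benjamini-Hochberg adjustment over all genes). That fit has 1 residual degree of freedom and takes the single control to be as variable as the knockdown libraries. The RBMS1 level (-1, 0, 1) was fitted over 5 libraries with a term for the vector system. Overexpression (1 library against 1) is given as a ratio with an exact conditional 95% interval, for genes with a mean CPM of at least 5. Because PCR copies are no independent molecules, these intervals hold counting error alone. Total counts were 10327750 to 13980837. DESeq2 1.42.0 and limma 3.58.1 (voom), other scalings and filters, pseudogene counts added, a GC trend and left-out libraries served as alternatives. The scripts were tested on simulated data. The 9 members are always named, with RBMS1, 13 further iron genes and the 3 nearest patterns of FTH1, FTL and TFRC. Some of the further genes are not reported here. Members and lists were chosen with earlier results of these data known.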

Additional observations from a re-analysis of the deposited data

Results flagged for a closer look

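FTL lay on the lower side of the control in both arms, although the arms change RBMS1 in opposite directions. Its log2 ratio to the sh control was -0.19 in sh1088 and -0.96 in sh1196, and its ratio of overexpression to the pCDH control was -1.17. The difference between the arms was not tested. The side in sh1088 depends on the scaling: by library size alone FTL stood at 727 CPM there against 700.1 in the sh control, and the knockdown value was -0.022. FTL was 1.47-fold higher in the pCDH control than in the sh control.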

How the results depend on the processing

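No paired analysis was possible because the labels give the libraries no shared replicate numbers. No member was called in the knockdown or level fit under any alternative run. Genes called for knockdown (0 in the main analysis) came to 27 with library size scaling, 102 with no low-count filter, 6 at a mean CPM of at least 5, 16 with DESeq2 and 93 with the pCDH control exchanged for the sh control, an alternative chosen after seeing the data. For the level term (1 gene) they came to 36, 89, 2 and 56 under the first 4 of these, and 0 to 136 with 1 library left out. Library size scaling moved the median knockdown value of all genes from 0.066 to 0.61. It also turned FTH1 (0.092), SLC40A1 (0.28), NCOA4 (0.29) and IREB2 (0.17), which stayed under that median. With either hairpin library left out (no test), the knockdown values ranged from -1.13 to 0.14 for FTH1, -0.62 to 0.080 for SLC40A1, -0.026 to 0.71 for TFRC and -0.056 to 0.61 for ACO1, the sign changing without sh1196. Against the pCDH control the knockdown values of TFRC (-0.51), SLC40A1 (0.20), NCOA4 (1.45), IREB2 (0.75), SLC11A2 (-0.12) and STEAP3 (-0.059) changed sign. With 1 library left out, the level slopes ranged from -1.54 to 0.32 for FTH1, -1.17 to 0.49 for FTL and -0.35 to 2.82 for ACO1, turning sign without the pCDH control or overexpression. Without either of these the slope is only the knockdown value with its sign turned, and without the sh control it is only the overexpression ratio, so these fits are no separate check. TFRC ranged from -0.43 to 0.30, turning without the sh control or sh1196. For overexpression, genes at least 2-fold higher (1524) and lower (1426) came to 2728 and 3409 with no filter beyond 10 counts, and to 835 and 860 with the GC trend taken out, where 1 member was lower. With the sh control, also chosen after seeing the data, 944 genes (9.08%) and 1 member were higher and 1107 genes (10.6%) and 1 member lower, with NCOA4 at -0.26 and STEAP3 at 0.34. IREB2 turned to -0.099 by TPM. The scalings below were added after seeing the data. By library size, 5 members were higher (58.6% of all genes) and 0 lower (14.3%) in both hairpin libraries, 4 were at least 2-fold higher (43.5%) and 1 lower (6.27%) in the pCDH control, and 2 followed the RBMS1 level in sign (39.1%), as did 2 with the controls exchanged (41.8%). By nuclear protein-coding library size, 4 members were higher (39%) and 3 lower (32.4%) in both hairpin libraries. Per coding length the FTH1 to FTL ratios were 1.66, 2.08, 1.48, 1.04 and 0.802 and the TFRC to FTH1 ratios 0.0174, 0.0155, 0.0622, 0.0356 and 0.128, in the order sh control, sh1088, sh1196, pCDH control and overexpression. The causes were not tested.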

Other observations

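Genes of heme handling and of iron-sulfur cluster assembly were measured in the same libraries. Heme oxygenase 1 (HMOX1), which frees iron from heme, stood at 139 CPM in the sh control, against 176 in sh1088 and 95.4 in sh1196, and at 164 in the pCDH control against 47.8 with overexpression. Its log2 ratio of overexpression to the pCDH control was -1.78 (95% counting interval -1.91 to -1.65), and that of the heme transporter gene SLC48A1 was -1.42 (-1.56 to -1.28). Of the 10 genes listed for heme breakdown and transport, 9 had a mean CPM of at least 5 in this comparison. Among these 9, HMOX1 and SLC48A1 were at least 2-fold lower, against 13.7% of all genes, and none was at least 2-fold higher, against 14.6%. Their median was -0.33 beside 0.064 over all genes. For knockdown, 0 of 10 genes of that list were called by edgeR, against 0% of all genes. At an unadjusted p under 0.05 there were also 0, against 5.87% of all genes, and the median was 0.49 beside 0.066.

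Of 8 heme synthesis genes, 0 were called for knockdown, against 0% of all genes tested. With overexpression 1 of them, UROD (log2 ratio 1.47), was at least 2-fold higher, against 14.6% of all genes. UROD stood at 28.9 CPM in the sh control, and at 8.95 in the pCDH control against 24.8 with overexpression. Of 27 genes of iron-sulfur cluster assembly and mitochondrial iron, 0 were called for knockdown, with a median of 0.11. The mitochondrial iron importer gene SLC25A37 stood at 42.2 CPM in the sh control, against 59.8 in sh1088 and 75.0 in sh1196, and at 62.6 in the pCDH control against 40.1 with overexpression, and the knockdown fit gave it 0.71 on the log2 scale (SE 0.47, adjusted p = 0.828 by edgeR).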
